A study of Mus musculus with 6 samples.

Results

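The 31 genes described here encode the enzymes that turn glucose into lactate, the transporters at either end of that route, and genes of the cellular oxygen response. They were taken by symbol from a deposited table of 23358 gene rows, and all 31 were present and had enough counts to be tested. RNA was measured by RNA-seq in MC3T3-E1 cells, a pre-osteoblast line from the calvaria of C57BL/6 mice, which had been grown to confluency before treatment. One group had received the DNA-dependent protein kinase inhibitor NU7441 at 1 µM for 16 h, and the other its solvent DMSO for 16 h, with 3 sequenced samples in each group. Triplicates of independent experiments had been pooled before sequencing, and what the sample numbers mean is not stated, so p-values reflect only how these samples vary, which may be technical. All samples came from the same line at a single time and a single dose.

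Glycolysis splits glucose into pyruvate in the cytosol, and lactate dehydrogenase then reduces pyruvate to lactate, which leaves the cell through monocarboxylate transporters. When oxygen is scarce, prolyl hydroxylases no longer mark the α subunit of hypoxia-inducible factor (HIF) for destruction, and HIF then raises the transcription of many glycolytic genes and of genes such as Vegfa. Osteoblasts take up much glucose and release much of it as lactate even in the presence of oxygen.

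In NU7441 cells 3 of the 6 genes for the lower phase of glycolysis, Tpi1, Pgk1 and Pgam1, and the lactate dehydrogenase gene Ldha were lower, by modest amounts. Transcripts of these 4 genes fell by 11.9% to 20.3%, and those of the hexokinase Hk2 and the lactate transporter Slc16a1 fell by 21.2% and 24.7%. Ndrg1, a stress- and hypoxia-responsive gene, rose by 27.4%, and Ldhb, the other lactate dehydrogenase subunit, rose by 21.3%. Vegfa, Slc2a1, Pdk1 and Hif1a, which are also tied to HIF, did not pass the test. Across the 31 genes, 3 were called higher and 8 lower at an edgeR adjusted p under 0.05, which is 35.5% of them, against 30.7% of all 13784 genes tested. The share called higher was 9.68%, against 14.1% of all genes, and the share called lower was 25.8%, against 16.6%. The median log2 fold change was -0.05 over the 31 genes and 0.01 over all genes tested. The counts of each of the 31 genes are from bulk samples, in which fewer cells of a type and less RNA per cell cannot be told apart.

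**Figure D1:**
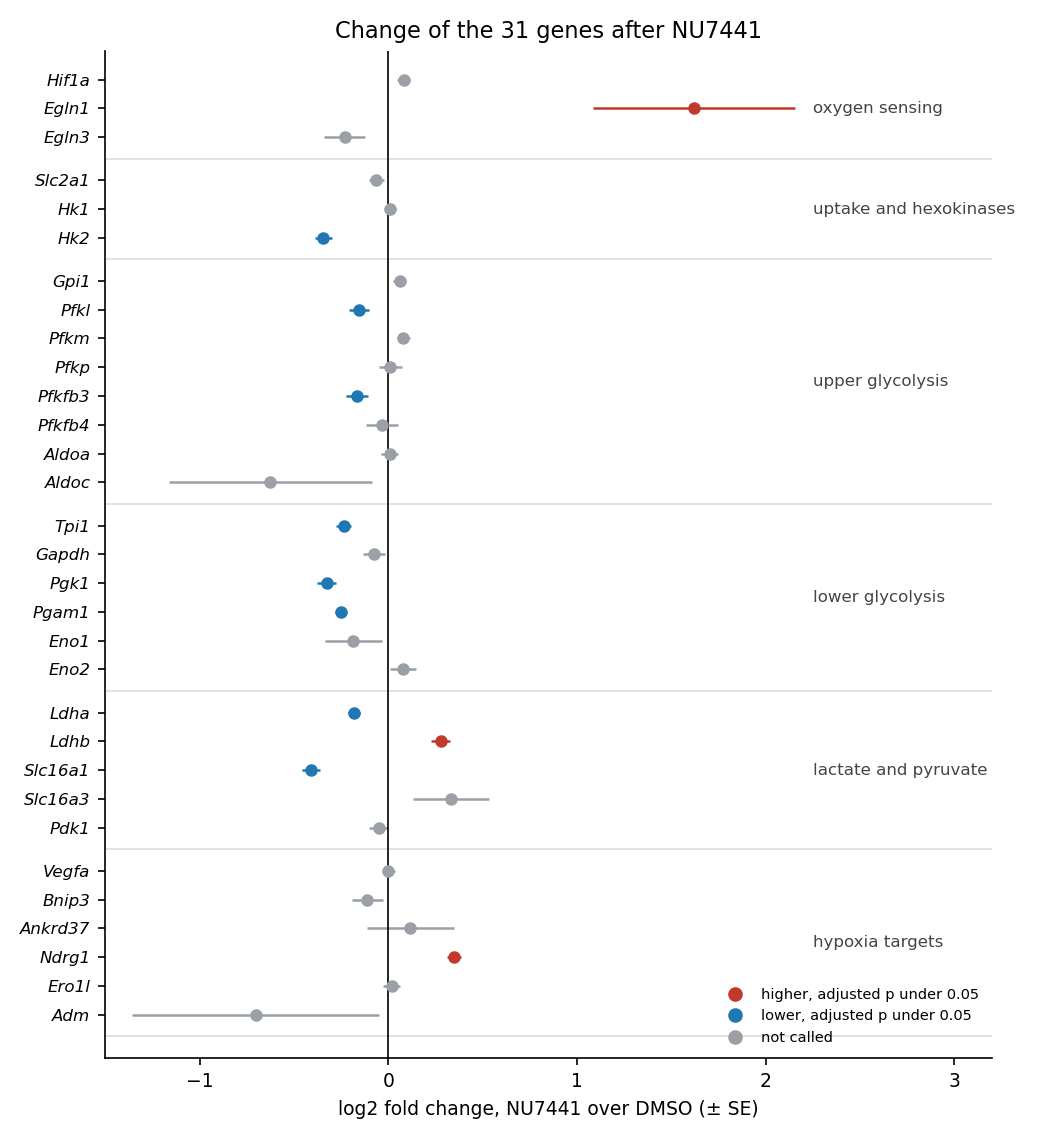
Log2 fold change of each of the 31 genes, NU7441 over DMSO, with its standard error as a bar, grouped by role in the pathway; colours mark genes called higher, called lower or not called at an edgeR adjusted p under 0.05. Hk2, Tpi1, Pgk1, Pgam1, Ldha and Slc16a1 lie left of 0, Ndrg1 and Ldhb right of it, and the wide bar at 1.62 is Egln1, which rests on 1 library.

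The samples held 52150994, 55021692 and 52944350 counts with NU7441 and 55070554, 47312968 and 71292628 with DMSO, and counts were always even, as if read pairs had been counted as 2. The 31 genes took 0.286%, 0.285% and 0.269% of the counts in NU7441 samples and 0.306%, 0.284% and 0.299% in DMSO samples. Osteoblast transcripts were present, with summed CPM (counts scaled to library size) of 50804 to 52610 with NU7441 and 49379 to 52094 with DMSO over 11 marker genes. Col1a1 and Col1a2 made up most of this sum, and Bglap and Bglap2 were barely detected. Of the 9 tested, 3 rose (33.3%) and 2 fell (22.2%), against 14.1% of all tested genes higher and 16.6% lower. Spp1, Sparc and Col1a2 rose by 18.5%, 8.07% and 3.61%, and Ibsp and Alpl fell by 45.9% and 18.4%. Ptprc, Emr1, Kdr, Epcam, Krt8, Krt18, Myod1 and Acan, which mark leukocytes, macrophages, endothelium, epithelium, muscle or cartilage, had 0 counts in every sample. The summed CPM of the adipocyte, macrophage, endothelial, epithelial and muscle marker lists stayed under 5 in each sample, with 1 of their 7 tested genes higher and 0 lower. The cartilage list, which shares Sox9 with osteoblast precursors, summed to between 87.4 and 91.4 CPM with NU7441 and between 80.2 and 82.2 with DMSO, and 2 of its 3 tested genes rose. All 10 cell division genes of the marker list fell, with summed CPM of 373 to 458 with NU7441 and 1040 to 1189 with DMSO. The part of this drop in the results on the glycolytic genes was not tested.

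Sequences upstream of the start site are shown for 4 of the 8 genes whose calls held in each alternative analysis. Ldha, Pgk1 and Slc16a1 fell and their windows hold the core of the HIF binding site, and Ldhb rose and its window holds only the variant core. Other called genes differed from this: the window of Tpi1, which also passed as lower in each alternative, holds neither core. The window of Pfkl, called lower, holds only the variant core, and that of Egln1, called higher, holds 1 ACGTG. Each sequence is the 250 bases before the RefSeq start site on GRCm38.p6, the assembly that mm10 corresponds to, written 5′ to 3′ on the gene's strand. Capitals mark ACGTG, the core bound by HIF, and its variant GCGTG on either strand, the opposite strand being read as the reverse complement. In CACGTG, the E-box, the matches on the 2 strands overlap.
Ldha, chr7:46845554-46845803, plus strand: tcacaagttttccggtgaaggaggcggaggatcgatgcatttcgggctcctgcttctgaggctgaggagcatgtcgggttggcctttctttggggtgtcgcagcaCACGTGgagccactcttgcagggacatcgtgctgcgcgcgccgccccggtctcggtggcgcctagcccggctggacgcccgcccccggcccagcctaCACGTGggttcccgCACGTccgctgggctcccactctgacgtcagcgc
Pgk1, chrX:106186850-106187099, plus strand: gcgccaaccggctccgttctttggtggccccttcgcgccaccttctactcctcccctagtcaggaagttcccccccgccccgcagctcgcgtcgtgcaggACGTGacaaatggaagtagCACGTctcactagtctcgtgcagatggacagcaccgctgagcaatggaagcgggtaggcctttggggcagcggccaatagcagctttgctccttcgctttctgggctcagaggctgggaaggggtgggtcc
Slc16a1, chr3:104638414-104638663, plus strand: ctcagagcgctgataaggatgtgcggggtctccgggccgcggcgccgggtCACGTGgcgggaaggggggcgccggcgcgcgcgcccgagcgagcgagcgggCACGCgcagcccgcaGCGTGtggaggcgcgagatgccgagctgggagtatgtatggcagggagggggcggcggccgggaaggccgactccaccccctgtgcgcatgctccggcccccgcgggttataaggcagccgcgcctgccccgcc
Ldhb, chr6:142507958-142508207, minus strand: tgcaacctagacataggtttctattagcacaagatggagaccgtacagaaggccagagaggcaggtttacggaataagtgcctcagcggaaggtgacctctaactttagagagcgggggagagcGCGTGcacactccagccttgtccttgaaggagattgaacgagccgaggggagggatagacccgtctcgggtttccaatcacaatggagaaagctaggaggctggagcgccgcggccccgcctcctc

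The Ldha window held 5 matches to ACGTG over both strands, 4 of which lie in 2 copies of CACGTG. The Pgk1 window held 2 matches, and that of Slc16a1 held 2 matches in 1 CACGTG plus 2 matches to GCGTG. In the Ldhb window 1 match to GCGTG and 0 to ACGTG were found. Of the 31 genes, 30 had a RefSeq window, all but Ndrg1. ACGTG occurred in 15 of these 30 windows (50%), against 2268 of 10481 windows of tested genes (21.6%). It was present in 6 of the 8 windows of genes that fell (75.0%), in 1 of the 2 of genes called higher and in 8 of the 20 of genes not called (40.0%). The share over all tested genes called lower was not counted. Either core was present in 24 of 30 windows (80.0%), against 56.3% for all tested genes, and CACGTG in 5 (16.7%), against 8.41%. The median GC content of the windows was 62.8% in the 30 genes and 60.0% in all tested genes. It was 65.6% in the genes called lower, 71.2% in those called higher and 58.0% in those not called, so GC content was not balanced between them. A match describes the letters in these windows and not a bound site. The set was assembled in part from known HIF targets.

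Hif1a encodes the oxygen-regulated α subunit of HIF-1. Its normalised level was 192, 178 and 185 CPM in NU7441 samples and 182, 171 and 170.5 CPM in DMSO samples. The groups overlapped, and the log2 fold change of 0.08 ± 0.04 (SE) did not pass (edgeR adjusted p = 0.104). Hif1a passed as higher without DMSO replicate 1 (edgeR adjusted p = 0.0486). Egln1 and Egln3 encode prolyl hydroxylases that mark the HIF α subunit for degradation. Egln1 had 41.1, 284 and 39.6 CPM in NU7441 samples and 38.3, 37.4 and 42.7 CPM in DMSO samples. NU7441 replicate 2 stood alone, with 15442 counts, against 2152 and 2066 in the other NU7441 samples and 1774 to 3066 in DMSO samples. The call of Egln1 as higher (log2 fold change 1.62 ± 0.53, edgeR adjusted p = 0.032) rests on that library: without it the log2 fold change was 0.03 (edgeR adjusted p = 0.751). It was also lost without any 1 of the DMSO samples (edgeR adjusted p = 0.0777 to 0.117), with a robust edgeR fit (0.32) and with DESeq2 (0.209). Egln3 had 4.24, 3.82 and 3.95 CPM in NU7441 samples and 4.93, 4.34 and 4.79 CPM in DMSO samples. All NU7441 values of Egln3 lay below all DMSO values, but the difference of -0.23 ± 0.11 on the log2 scale did not pass (edgeR adjusted p = 0.13).

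Glucose enters the cell through facilitative transporters, of which Slc2a1 encodes the widely expressed GLUT1, and hexokinases trap it as glucose 6-phosphate. Slc2a1 had 33.4, 33.2 and 33.3 CPM in NU7441 samples and 35.2, 32.9 and 36.0 CPM in DMSO samples, with a log2 fold change of -0.06 ± 0.04, at an edgeR adjusted p of 0.274. Hk1, the housekeeping hexokinase, had 125, 117 and 123 CPM with NU7441 and 121, 119 and 122 CPM with DMSO, and the groups overlapped (edgeR adjusted p = 0.875). Hk2, the inducible and insulin-sensitive hexokinase (chr6:82725027-82774454), had 25.7, 26.7 and 28.4 CPM in NU7441 samples and 33.4, 33.4 and 35.6 CPM in DMSO samples. Every NU7441 sample lay below every DMSO sample, with means of 26.9 ± 1.38 CPM in NU7441 and 34.1 ± 1.29 CPM in DMSO (SD, n = 3 each). The log2 fold change of Hk2 was -0.34 ± 0.05, at an edgeR adjusted p of 4.02e-05.

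The upper phase of glycolysis, from glucose 6-phosphate to the split of fructose 1,6-bisphosphate, had 8 of the 31 genes, of which 0 rose and 2 fell (25.0%), against 14.1% of all tested genes higher and 16.6% lower. The 2 that fell, Pfkl and Pfkfb3, did not pass in every alternative. Gpi1, the isomerase that makes fructose 6-phosphate, had 179, 165 and 167 CPM in NU7441 samples and 163, 159 and 167 CPM in DMSO samples, and did not pass (log2 fold change 0.06 ± 0.03, edgeR adjusted p = 0.195). Phosphofructokinase, the committed step, is built from the liver, muscle and platelet subunits encoded by Pfkl, Pfkm and Pfkp. Pfkl had 73.8, 64.9 and 67.0 CPM in NU7441 samples and 80.3, 71.4 and 77.2 CPM in DMSO samples. The groups overlapped, since NU7441 replicate 1 lay above DMSO replicate 2, and the fall of 0.15 ± 0.05 on the log2 scale passed narrowly (edgeR adjusted p = 0.0308). It no longer passed without NU7441 replicate 2 (0.118), NU7441 replicate 3 (0.0981), DMSO replicate 1 (0.141) or DMSO replicate 3 (0.0879), as edgeR adjusted p, and with upper-quartile scaling (0.0606). Pfkm differed by 0.08 ± 0.04 and Pfkp by 0.01 ± 0.06 on the log2 scale, and neither passed (edgeR adjusted p = 0.111 for Pfkm and 0.923 for Pfkp). The CPM of Pfkm, 53.6, 56.4 and 52.9 with NU7441 and 51.4, 50.6 and 52.0 with DMSO, did not overlap.

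Pfkfb3 and Pfkfb4 encode bifunctional enzymes that make fructose 2,6-bisphosphate, the main activator of phosphofructokinase. Pfkfb3 had 13.6, 13.9 and 12.8 CPM in NU7441 samples and 15.1, 15.3 and 14.7 CPM in DMSO samples. The groups did not overlap, and the fall of 0.16 ± 0.06 on the log2 scale passed only just (edgeR adjusted p = 0.0451). The call of Pfkfb3 was lost when any 1 of the 6 samples was left out, with edgeR adjusted p between 0.0681 and 0.173, and with DESeq2 (0.104), with counts divided by 2 (0.0504) and with upper-quartile scaling (0.0875). Pfkfb4 had 7.94, 7.02 and 7.24 CPM with NU7441 and 7.70, 7.75 and 7.30 CPM with DMSO and did not pass (edgeR adjusted p = 0.811). Aldoa, the main aldolase outside liver and brain, had 322, 288 and 299 CPM in NU7441 samples and 313, 282 and 309 CPM in DMSO samples, with a log2 fold change of 0.01 ± 0.05, at an edgeR adjusted p of 0.911. Aldoc, the brain isozyme, was close to the limit of detection, with 16, 12 and 2 counts with NU7441 and 20, 18 and 12 counts with DMSO.

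The lower phase, as grouped here, carries the triose phosphates to phosphoenolpyruvate. Of its 6 genes 3 fell, Tpi1, Pgk1 and Pgam1, and 0 rose, where 16.6% of all tested genes fell and 14.1% rose. Tpi1 interconverts the triose phosphates (chr6:124810592-124814296). It had 253, 224 and 242 CPM in NU7441 samples and 292, 272 and 284.5 CPM in DMSO samples, with means of 240 ± 14.4 CPM in NU7441 and 283 ± 10.0 CPM in DMSO (SD, n = 3 each). The log2 fold change was -0.24 ± 0.04, at an edgeR adjusted p of 0.000547. Pgk1, whose enzyme makes ATP, lies at chrX:106187124-106203699. Its values were 262, 224 and 237 CPM in NU7441 samples and 320.2, 286 and 301 CPM in DMSO samples, and its log2 fold change was -0.33 ± 0.05, at an edgeR adjusted p of 0.000194. Pgam1 shifts the phosphate of phosphoglycerate (chr19:41911871-41918665). It had 323, 320 and 313 CPM in NU7441 samples and 391, 366 and 381 CPM in DMSO samples, and fell by 0.25 ± 0.03 on the log2 scale, at an edgeR adjusted p of 3.54e-05. For Tpi1, Pgk1 and Pgam1 each NU7441 sample lay below each DMSO sample.

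**Figure D2:**
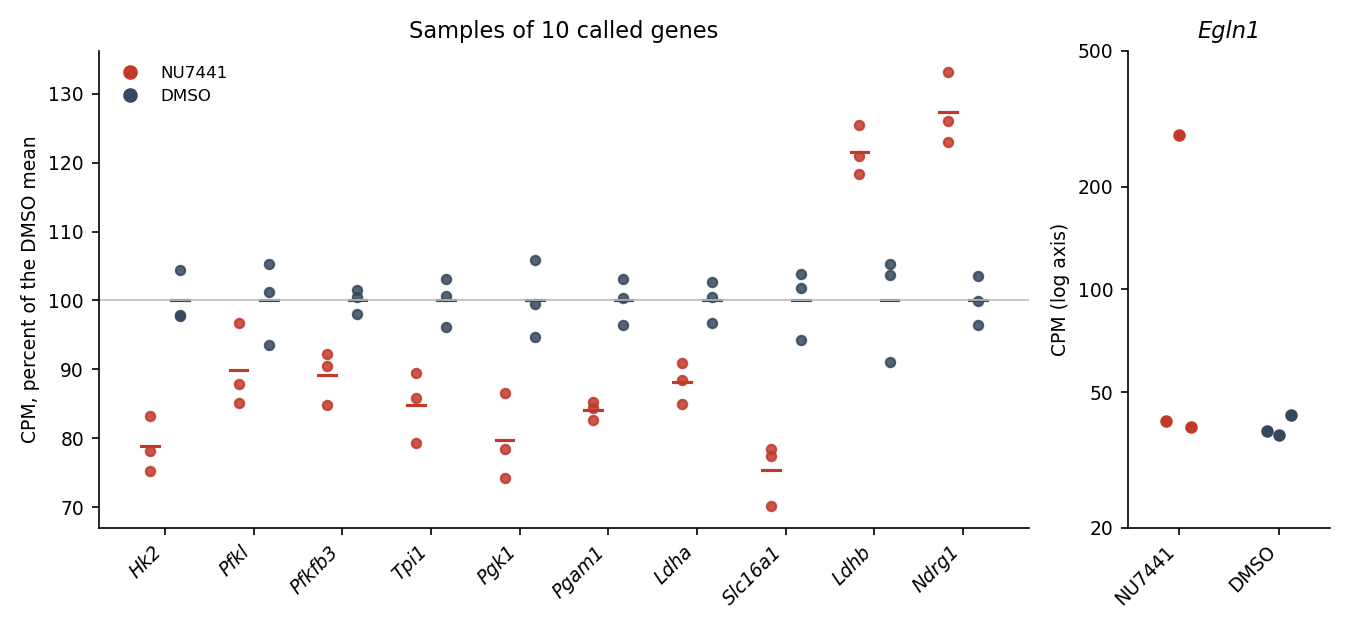
CPM of the 11 called genes in each sample, with NU7441 left of DMSO, where points are samples and short lines are group means. For 10 genes the axis is percent of the DMSO mean, and for Egln1, in the right panel, it is CPM on a log axis with 1 NU7441 sample at 284. The groups overlap for Pfkl and Egln1 and are apart for the other 9 genes.

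Gapdh, Eno1 and Eno2 gave no call. Gapdh, the dehydrogenase between Tpi1 and Pgk1 in the pathway, had 40.0, 33.3 and 35.4 CPM in NU7441 samples and 38.8, 36.2 and 39.3 CPM in DMSO samples (log2 fold change -0.08 ± 0.06, edgeR adjusted p = 0.35). Without NU7441 replicate 1 it was -0.15 (edgeR adjusted p = 0.0195). The level of Gapdh is uncertain: 73 other GENCODE M21 genes, 69 of them annotated as pseudogenes, match it at 95% identity or more over at least 500 bases, and how reads with several matches were handled is unstated. Eno1, the ubiquitous enolase, had 5.31, 3.23 and 4.64 CPM in NU7441 samples and 5.07, 5.35 and 4.60 CPM in DMSO samples, and Eno2, the neuronal enolase, had 10.4, 10.3 and 10.3 CPM with NU7441 and 9.28, 10.2 and 9.86 CPM with DMSO. Neither passed (edgeR adjusted p = 0.394 for Eno1 and 0.432 for Eno2). The Eno1 row shares 11550 bases with a second row, Gm5506, which had 0 counts in every sample, so the level of Eno1 is uncertain too. Pgk1 and Ldha had 2 such near-identical pseudogenes each, Pgam1 and Ldhb 1 each, and Tpi1, Hk2, Slc16a1 and Ndrg1 had 0.

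The lactate dehydrogenase tetramer is built from the Ldha subunit, which favours the formation of lactate, and the Ldhb subunit, which favours its oxidation, and their transcripts changed in opposite directions. Ldha (chr7:46845804-46855627), whose upstream window holds the 2 CACGTG copies shown above, had 450.3, 421 and 438 CPM in NU7441 samples and 509, 479 and 498 CPM in DMSO samples. Its means were 437 ± 14.6 CPM in NU7441 and 495 ± 15.1 CPM in DMSO (SD, n = 3 each), and its log2 fold change was -0.18 ± 0.03, at an edgeR adjusted p of 0.000672. Ldhb (chr6:142490249-142507943) had 33.6, 31.7 and 32.4 CPM in NU7441 samples and 28.2, 24.4 and 27.8 CPM in DMSO samples. All NU7441 samples lay above all DMSO samples, with means of 32.6 ± 0.976 CPM in NU7441 and 26.8 ± 2.1 CPM in DMSO. The log2 fold change of Ldhb was 0.28 ± 0.05, at an edgeR adjusted p of 0.000764.

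Lactate crosses the plasma membrane through MCT1, encoded by Slc16a1, and MCT4, encoded by Slc16a3, a HIF target in many cells. Slc16a1 (chr3:104638668-104658462) had 25.4, 28.4 and 28.003 CPM in NU7441 samples and 34.1, 36.9 and 37.6 CPM in DMSO samples, without overlap. It had the largest fall among the 8 genes called lower, with a log2 fold change of -0.41 ± 0.05, at an edgeR adjusted p of 1.79e-05. Slc16a3 had 1.604, 2.09 and 2.03 CPM with NU7441 and 1.15, 1.52 and 1.84 CPM with DMSO, where the groups overlapped (log2 fold change 0.33 ± 0.20, edgeR adjusted p = 0.24). Pdk1, a kinase that holds pyruvate back from the mitochondrial pyruvate dehydrogenase complex and a known HIF target, had 46.9, 39.8 and 45.1 CPM in NU7441 samples and 45.6, 44.96 and 45.8 CPM in DMSO samples and did not pass (edgeR adjusted p = 0.494).

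Of the 6 hypoxia targets outside glycolysis, 1 rose (16.7%) and 0 fell, against 14.1% of all tested genes higher and 16.6% lower. Ndrg1 (chr15:66929318-66969641) had 89.7, 87.6 and 94.7 CPM in NU7441 samples and 68.7, 71.2 and 73.7 CPM in DMSO samples. Its groups did not overlap, with means of 90.7 ± 3.67 CPM in NU7441 and 71.2 ± 2.53 CPM in DMSO (SD, n = 3 each), and its log2 fold change was 0.35 ± 0.04, at an edgeR adjusted p of 8.27e-06. Vegfa, the angiogenic growth factor, had 76.0, 72.4 and 73.9 CPM in NU7441 samples and 73.0, 75.5 and 73.7 CPM in DMSO samples, and its log2 fold change was 0.00 ± 0.03. Bnip3, which promotes mitophagy, had 38.7, 29.5 and 33.3 CPM in NU7441 samples and 40.6, 33.2 and 35.6 CPM in DMSO samples (log2 fold change -0.11 ± 0.08, edgeR adjusted p = 0.348). Without NU7441 replicate 1 its difference was -0.22 (edgeR adjusted p = 0.0243). Ero1l, an oxidase of the endoplasmic reticulum that serves disulfide formation, had 55.0, 55.5 and 56.4 CPM with NU7441 and 58.8, 50.8 and 55.0 CPM with DMSO (edgeR adjusted p = 0.81). Ankrd37, an ankyrin-repeat gene induced in hypoxia, had 2.02, 1.10 and 1.46 CPM with NU7441 and 1.51, 1.14 and 1.53 CPM with DMSO (edgeR adjusted p = 0.751). Adm, the vasodilator peptide adrenomedullin, was barely detected, with 14, 2 and 2 counts with NU7441 and 12, 12 and 8 counts with DMSO. Adm and Aldoc were not called (edgeR adjusted p = 0.465 and 0.423). Their log2 fold changes had an SE of 0.66 and 0.54, so only a large difference could have passed.

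Of the 31 genes, 12 (38.7%) had CPM values that did not overlap between the groups, against 42.8% of all genes tested, with 4 above in NU7441 and 8 below. The rise of Ldhb and Ndrg1 and the fall of Hk2, Tpi1, Pgk1, Pgam1, Ldha and Slc16a1 passed in all 15 alternative analyses, 8 calls of 11. Egln1 was the only 1 of the 31 genes with a log2 fold change of at least 1 in either direction. Libraries also had an order of their own within a group. NU7441 replicate 1 was the highest of its group in 23 of the 31 genes, against 35.1% of all genes, and NU7441 replicate 2 the lowest in 21, against 34.1%. In the DMSO group replicate 2 was the lowest in 20 of the 31 genes, against 34.4% of all genes.

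Levels between genes were compared per length, as the deposited RPKM (reads scaled to gene length and to the sample's total). The levels of Gapdh and Eno1 are uncertain, as given above, so their ranks among the 31 are too. Ldha had the highest deposited RPKM of the 31 in both groups, at 168 ± 7.93 RPKM in NU7441 and 194 ± 6.98 RPKM in DMSO (SD, n = 3 each). It was followed in DMSO samples by Pgam1, Tpi1, Pgk1 and Aldoa, which had mean levels of 157, 134, 127 and 125 RPKM. In NU7441 samples Pgam1 had 129 RPKM, Aldoa 123, Tpi1 111 and Pgk1 99.3, so that Aldoa ranked 3 with NU7441 and 5 with DMSO. In DMSO samples the levels of Tpi1, Pgk1 and Aldoa overlapped. In NU7441 samples those of Aldoa overlapped with those of Pgam1 and of Tpi1, so the ranks of Aldoa are not resolved. Gpi1 came next at 44.2 RPKM in NU7441 and 43.3 RPKM in DMSO, and Hif1a at 28.8 and 27.8 RPKM. At the low end stood Aldoc, with 0.0823 RPKM in NU7441 and 0.134 RPKM in DMSO, and Adm, with 0.0620 and 0.106 RPKM.

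Calls were also counted by level. Of the 5 genes with at least 100 RPKM in DMSO, 4 fell, 0 rose and Aldoa was not called, with a median log2 fold change of -0.24. Over all 311 tested genes at that level, 61 fell (19.6%) and 151 rose (48.6%), with a median of 0.08. Of the 12 genes between 10 and 100 RPKM, 2 rose and 1 fell, and of the 14 under 10 RPKM, 1 rose and 3 fell. Of all tested genes at those levels, 19.1% rose and 25.8% fell between 10 and 100 RPKM, and 10.6% rose and 12.3% fell under 10 RPKM. These limits were chosen after the values were seen. Gapdh and Eno1, neither of which was called, were placed by levels of 23.4 and 2.13 RPKM in DMSO. Those levels are uncertain, so the makeup of the groups by level is uncertain too.

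**Figure D3:**
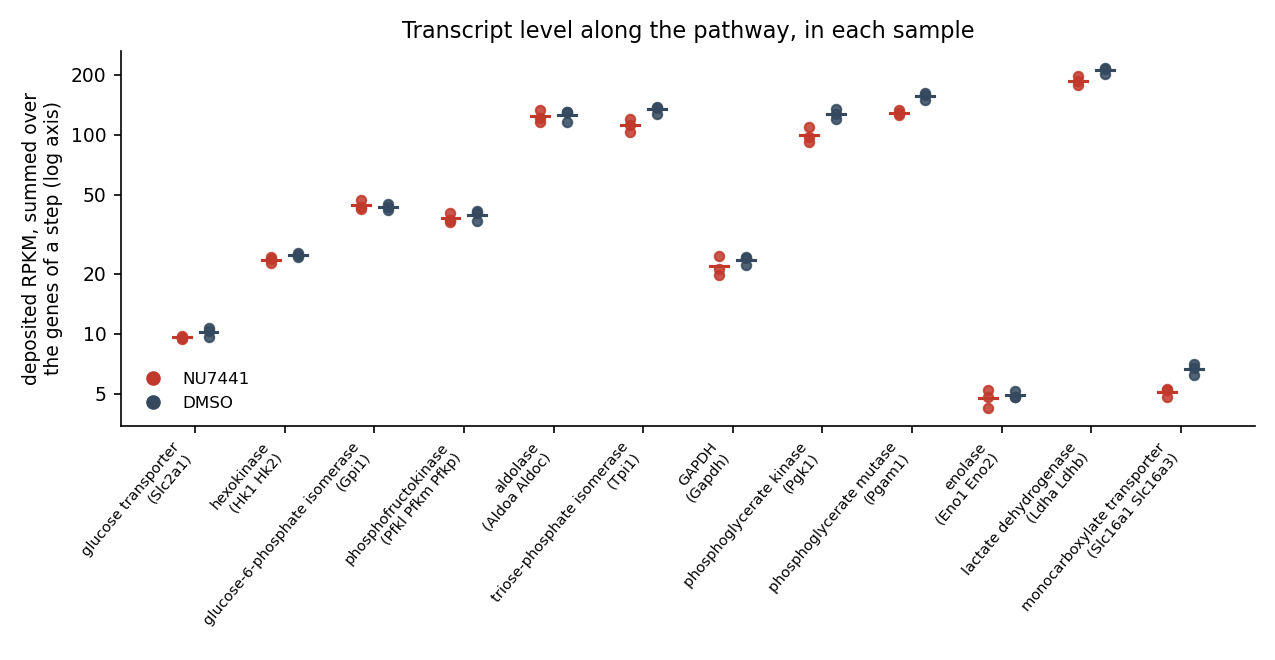
Summed RPKM of those of the 31 genes that serve each of 12 steps between glucose uptake and lactate export, on a log axis, with NU7441 left of DMSO at each step, where points are samples and short lines are group means. NU7441 samples lie below all DMSO samples at triose-phosphate isomerase, phosphoglycerate kinase, phosphoglycerate mutase, lactate dehydrogenase and the monocarboxylate transporters, and the groups overlap at the other 7 steps. Pyruvate kinase and isozymes outside the 31 genes, such as Eno3, are not plotted.

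Summed over those of the 31 genes that serve a step, NU7441 samples lay below all DMSO samples at 5 of 12 steps, and the groups overlapped at the other 7. For single genes, the CPM of the groups did not overlap in 42.8% of all genes tested, in either direction. That share is from CPM with scaled library sizes, an unlike measure, since RPKM is scaled only to each sample's total. Whether the steps differ from that share was not tested. The ratio of NU7441 to DMSO was 0.831 for triose-phosphate isomerase, 0.781 for phosphoglycerate kinase, 0.823 for phosphoglycerate mutase, 0.888 for lactate dehydrogenase and 0.771 for the monocarboxylate transporters. The other steps had ratios between 0.931 (Gapdh) and 1.02 (Gpi1). In the edgeR fit the falls of Tpi1, Pgk1 and Pgam1 were 15.1%, 20.3% and 16.0%, somewhat smaller than by RPKM. With isozymes outside the 31 genes added and pyruvate kinase counted as a step, a sum chosen after the values were seen, NU7441 samples lay below all DMSO samples at 7 of 13 steps. The steps added to these were enolase, with a ratio of 0.818 once Eno3 and Eno4 were included, and pyruvate kinase, with a ratio of 0.84. The summed lactate dehydrogenase level was 186 ± 8.76 RPKM in NU7441 and 210 ± 8.29 RPKM in DMSO, so the gain in Ldhb was smaller than the loss in Ldha. For enolase the sum of Eno1 and Eno2 was 4.75 ± 0.514 RPKM in NU7441 and 4.95 ± 0.203 RPKM in DMSO, and that of all 4 enolase rows was 9.83 ± 0.391 RPKM in NU7441 and 12.01 ± 0.0598 RPKM in DMSO. Eno3 alone, which is not 1 of the 31 genes, had 5.004 RPKM in NU7441 and 6.97 RPKM in DMSO, and the level of the Eno1 row is uncertain.

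The makeup of a step was described as each isozyme's share of the summed RPKM of the 31 genes at that step, with no test. Ldhb made up 10.05%, 10.12% and 9.96% of the lactate dehydrogenase transcripts in NU7441 samples and 7.66%, 7.08% and 7.71% in DMSO samples, a difference of 2.56 percentage points without overlap. Hk2 made up 15.4% ± 0.829 of the hexokinase transcripts in NU7441 and 18.8% ± 0.428 in DMSO (SD, n = 3 each), also without overlap. Slc16a3 made up 10.7% ± 0.796 of the monocarboxylate transporter transcripts in NU7441 and 6.61% ± 1.14 in DMSO. The Slc16a3 row itself was not called. For phosphofructokinase, the Pfkl share was 35.95% ± 1.08 in NU7441 and 39.3% ± 0.296 in DMSO, and the shares of Pfkm and Pfkp overlapped between the groups. The shares of Aldoa, Eno1 and Pfkfb3 within their steps overlapped as well.

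**Figure D4:**
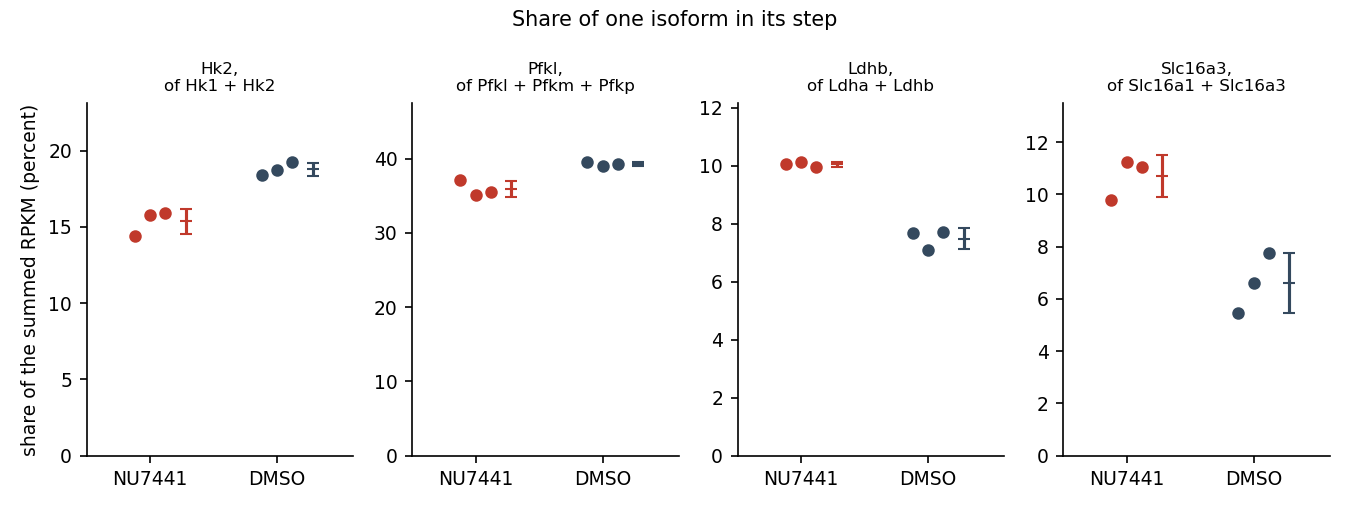
Share of each step's summed RPKM held by 1 isozyme, in percent, with NU7441 left of DMSO, where points are samples and the bars beside them are mean ± SD (n = 3). The Ldhb and Slc16a3 shares are higher and the Hk2 and Pfkl shares lower in each NU7441 sample than in each DMSO sample.

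On chromosome 6 lie 5 of the 31 genes, and neighbours there differed in their calls. The log2 fold changes were 0.08 ± 0.07 for Eno2, -0.24 ± 0.04 for Tpi1 and -0.08 ± 0.06 for Gapdh, whose level is uncertain. Differences between these genes were not tested. Eno2 was not called, Tpi1 fell, and Gapdh was not called, although Tpi1 begins 41.1 kb beyond the end of Eno2 and Gapdh 347.6 kb beyond the end of Tpi1. Hk2 fell and Ldhb rose on the same chromosome, at greater distances.

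Other genes of the same pathways were read from lists that leave out the 31. Among 17 tested genes of other glycolytic isozymes and regulators, 0 rose and 4 fell (23.5%), against 14.1% of all tested genes higher and 16.6% lower. Pyruvate kinase M, which makes pyruvate and is listed as Pkm2, had 642, 583 and 612 CPM in NU7441 samples and 749, 687 and 704 CPM in DMSO samples, and fell by 0.22 ± 0.04 on the log2 scale, at an edgeR adjusted p of 0.000405. Eno3, the muscle enolase, fell by 0.45 ± 0.06 (edgeR adjusted p = 5.89e-05). Of 12 genes for the entry of pyruvate into the mitochondria, 3 rose (25.0%) and 2 fell (16.7%). The kinases Pdk2 and Pdk4, relatives of Pdk1 that restrain the same complex, rose by 0.36 ± 0.05 and 0.26 ± 0.03 on the log2 scale, at an edgeR adjusted p of 0.000113 and 3.73e-06. Of 7 pentose phosphate genes 0 rose and 1 fell, and of 3 tested gluconeogenic genes 0 rose and 1 fell.

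Among 38 other tested genes of the oxygen response, 7 rose (18.4%) and 9 fell (23.7%), against the same 14.1% and 16.6% of all tested genes. Arnt, the constant partner of the HIF α subunits, averaged 124 ± 1.59 CPM in NU7441 and 112 ± 0.948 CPM in DMSO (SD, n = 3 each) and rose by 0.14 ± 0.03 on the log2 scale, at an edgeR adjusted p of 0.00162. Vhl, which targets hydroxylated HIF for degradation, and Epas1, the HIF-2 α subunit, did not pass (edgeR adjusted p = 0.453 and 0.888). Tfrc, the transferrin receptor, had the largest fall among the named genes of these lists, 0.71 ± 0.04 on the log2 scale, at an edgeR adjusted p of 3.31e-09. Higd1a, a mitochondrial hypoxia-induced gene, fell by 0.50 ± 0.06, Ak4, a mitochondrial adenylate kinase, fell by 0.49 ± 0.09, and the repressor gene Bhlhe40 fell by 0.26 ± 0.04, all on the log2 scale. In the opposite direction, Ppp1r3c, a glycogen-targeting phosphatase subunit, rose by 0.53 ± 0.08 and Bnip3l, the mitophagy receptor related to Bnip3, rose by 0.24 ± 0.04. The edgeR adjusted p was 1.58e-05 for Higd1a, 0.000747 for Ak4, 0.000128 for Bhlhe40, 0.000137 for Ppp1r3c and 0.000152 for Bnip3l.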

How the data were processed

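MC3T3-E1 RNA-seq was compared between NU7441 and DMSO (3 samples each). Per the labels' protocols, an Illumina mRNA kit was used. The submitters' processing notes name bcl2fastq, TopHat2 2.0.6, HTSeq and mm10 without settings, and the strand setting is not given in the sources used, so reads of overlapping genes cannot be told apart. Per the file headers, the authors deposited counts with RPKM values for 23358 gene rows. Counts were tested as deposited. RPKM served only for levels between genes, sums over a step and shares of a step. After filterByExpr (minimum count 10, minimum total 15) and TMM scaling, edgeR 4.0.16 in R 4.3.3 gave two-sided quasi-likelihood tests, with Benjamini-Hochberg adjustment over 13784 genes at 0.05. The SE is the fold change divided by the square root of F. CPM uses scaled library sizes, and the biological coefficient of variation was 5.6%. The code was tested on simulated data. Each pair of replicates differed beyond sampling noise. Near-identical copies were searched with blastn 2.17.0 in GENCODE M21 transcripts, and windows within 1000 bases of the row's start came from RefSeq. Gene coordinates were taken from the deposited table (mm10). The genes and lists were chosen with earlier results of these data known. All 31 genes are named; of the other lists Pkm, Epas1, Arnt, Vhl and the 10 genes with the lowest adjusted p among those called with a mean of at least 1 CPM. Alternatives changed scaling, filter, tool (DESeq2 1.42.0), replicate block and samples.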

Additional observations from a re-analysis of the deposited data

How the results depend on the processing

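Over 15 alternatives 8 of the 11 calls held in each, and no call changed direction. With upper-quartile scaling 5 of the 31 genes were higher, against 3 in the analysis reported, as Hif1a (edgeR adjusted p = 0.0297) and Pfkm (0.0365) were gained; of all calls 56.5% were then higher, against 45.9% as reported. With one sample left out at a time, 2 to 3 of the 31 were higher and 6 to 9 lower. The calls of Egln1, Pfkl and Pfkfb3 did not hold throughout, as given beside them. With counts not divided by gene length, the share of Ldha differed by -1.82 percentage points (-2.56 as reported) and that of Slc16a1 by -2.56 (-4.09 as reported). The sample numbers were not taken as pairs: deviations of same-numbered samples correlated at 0.134, 0.088 and 0.0471. Each sample correlated best with its own number, a hint from the data and not the design. A fit with the replicate block called 4 of the 31 higher and 9 lower, with Hif1a and Bnip3 gained, and 2417 of all genes higher and 2703 lower. Aldoc and Adm, under 1 CPM, have too few counts to show any but a large difference.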
